A study of Mus musculus with 3 samples.

Results

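The cells described here are urothelial cells of the mouse bladder that carried the most transcripts of Defb1, Tmem176a and Tmem176b, and they are called high cells below. They were selected on these 3 genes within each library. A cell was eligible with at least 500 genes, at most 20% of UMIs (counted transcript molecules) from mitochondrial mt- genes, at least 10000 UMIs and at least 0.2% of UMIs from the uroplakin genes Upk1a, Upk1b, Upk2 and Upk3a. The top 10% of eligible cells by the summed UMIs of the 3 genes over the total UMIs of the cell were then taken. This gave 467 of 4670 eligible cells in the Lpar6 knockout library, 517 of 5171 in the Cab39l knockout library and 289 of 2887 in the wild-type library, 1273 of 12728 in all. The other 11455 eligible cells are called the rest. The matrices held 25784 barcodes.

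The study profiled trypsin-released bladder urothelium with 10x Genomics 3′ tag sequencing of single cells in Lpar6 knockout, Cab39l knockout and wild-type mice. Lpar6 encodes a G protein-coupled receptor for lysophosphatidic acid, and Cab39l a scaffold partner of the kinase LKB1. Every genotype is 1 library made from the pooled cells of 15 mice, and single animals are not marked. The sources used here do not give strain, age, sex or how the knockouts were made.

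The urothelium is a layered epithelium in which basal cells lie on the basement membrane, intermediate cells above them, and umbrella cells face the urine under plaques of uroplakin proteins. Defb1 encodes beta-defensin 1, a small secreted cationic peptide that epithelia make constitutively and that acts on bacteria in the urinary tract. Tmem176a and Tmem176b encode paired multi-pass membrane proteins related to the MS4A family. They have been studied mostly in dendritic cells and other immune cells, where they lie in intracellular vesicles. The label of these cells also names Csrp2, which encodes a LIM-domain protein of the actin cytoskeleton, and Enho, which encodes the secreted peptide adropin.

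Defb1 lies on chromosome 8 (mm10, positions 21776599 to 21795185, plus strand). Tmem176a (chromosome 6, 48840919 to 48847071, plus strand) and Tmem176b (chromosome 6, 48833818 to 48841496, minus strand) are neighbours that run away from each other. Their gene bodies in the GENCODE vM21 annotation overlap over 578 bases at their 5′ ends, and their 3′ ends, which 3′ tags read, lie 13253 bases apart. The sources used here do not say whether reads were assigned by strand, so counts at the overlap are uncertain. The start regions of this pair are shown because the share of cells with Tmem176b differed far more between cells with and without Tmem176a than the share with either gene did between cells with and without Defb1. Both sequences are RefSeq windows of GRCm38.p6, 5′ to 3′ on the strand of the gene, with 250 bases before the transcription start in lower case and 50 bases from the start on in capitals. RefSeq lists further starts for both genes, and the starts nearest to each other were taken.
Tmem176a, chr6:48841233-48841532, plus strand: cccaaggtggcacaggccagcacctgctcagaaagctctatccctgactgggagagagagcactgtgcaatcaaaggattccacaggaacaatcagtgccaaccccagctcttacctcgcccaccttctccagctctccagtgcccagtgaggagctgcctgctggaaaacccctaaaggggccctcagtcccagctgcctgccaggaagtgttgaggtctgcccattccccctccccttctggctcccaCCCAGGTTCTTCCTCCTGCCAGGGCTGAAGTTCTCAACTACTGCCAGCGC
Tmem176b, chr6:48841325-48841624, minus strand: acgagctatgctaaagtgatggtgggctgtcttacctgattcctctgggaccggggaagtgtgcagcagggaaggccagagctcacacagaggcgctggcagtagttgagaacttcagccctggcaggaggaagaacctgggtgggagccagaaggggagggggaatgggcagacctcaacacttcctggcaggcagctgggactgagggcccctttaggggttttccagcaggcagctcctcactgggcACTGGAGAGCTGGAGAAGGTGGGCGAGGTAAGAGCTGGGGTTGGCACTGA
The starts lie 109 bases apart, and the windows share 208 bases, read on opposite strands. Both strands were searched for short motifs, which are counted without regard to overlap. Neither window held the TATA box TATAAA, which 13.6% of 32817 RefSeq windows of this length held. Neither held CCAAT, which 37.4% held. Neither held GGGCGG (35.6% of windows) or TTCNNNGAA (8.29%). Csrp2 lies on chromosome 10 (110919789 to 110939622, plus strand) and Enho on chromosome 4 (41638144 to 41640324, minus strand).

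The libraries held 139250807 (Lpar6 knockout), 175075246 (Cab39l knockout) and 101977647 (wild type) UMIs. The knocked-out genes went with the labels over the eligible cells. Lpar6 had 0 UMIs in the Lpar6 knockout library, which allows up to 0.0236 CPM (UMIs per 1000000 UMIs) at a floor of 3 counts, against 12.1 CPM in the Cab39l knockout library and 13.6 CPM in wild type. Cab39l stood at 31.6 CPM in the Cab39l knockout library, against 94.0 CPM in the Lpar6 knockout library and 112 CPM in wild type. The sources used here do not say whether these 3′ tags lie inside the deleted parts. Of the barcodes, 56.3% (Lpar6 knockout), 55.0% (Cab39l knockout) and 35.7% (wild type) were eligible. Pairs of libraries shared 16 to 19 barcodes in all, 2 to 8 eligible ones and 0 among high cells. High cells were slightly shallower than the rest, with medians of 25295 against 27489 UMIs (Lpar6 knockout), 28387 against 31088 (Cab39l knockout) and 22223 against 23911 (wild type). Median uroplakin shares were 0.977 against 1.03%, 0.961 against 0.955% and 0.682 against 0.737% of UMIs in the same order. The uroplakins were part of the eligibility rule. Summed over cells, all 4 were lower in high cells of each library, and in wild type Upk2 stood at 697 CPM in high cells against 869.5 CPM in the rest, and Upk1b at 866 against 1016 CPM.

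The score showed no step at the threshold in any library, and the high cells are the upper end of a continuous range. None of the 3 genes had a UMI in 44.6% of Lpar6 knockout, 21.8% of Cab39l knockout and 34.4% of wild-type eligible cells. High cells held a median of 5, 10 and 7 UMIs of the 3 genes together, and at least 2, 3 and 3. The lowest high cell and the highest other cell had scores of 1.564 and 1.562 UMIs per 10000 UMIs (Lpar6 knockout), 2.709 and 2.708 (Cab39l knockout) and 2.152 and 2.140 (wild type). Cells on both sides of the threshold thus had nearly the same score, and a cell with a score at the threshold of the Lpar6 knockout library would belong to the rest in the other libraries.

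**Figure D1:**
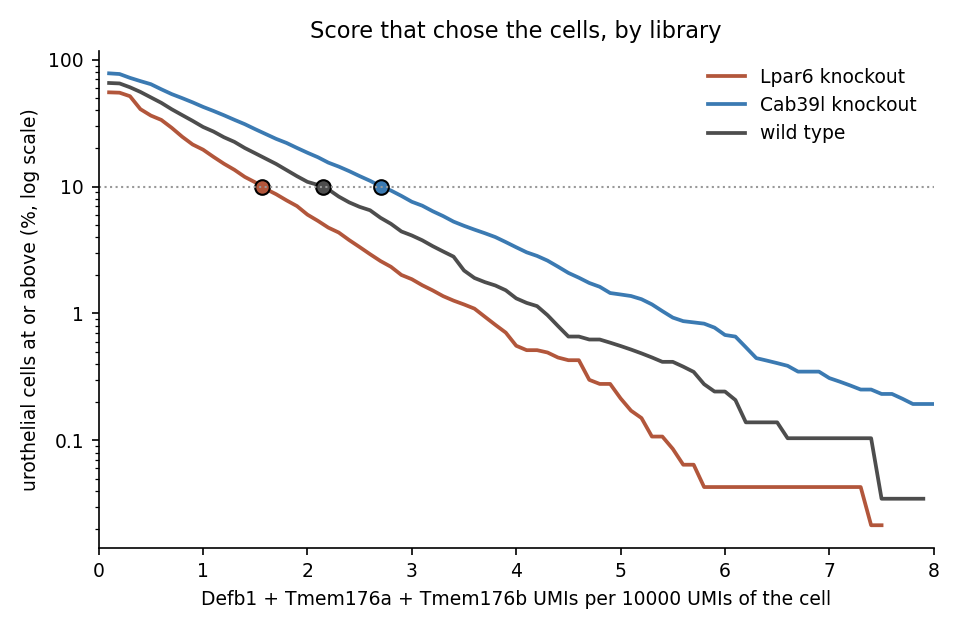
Share of eligible urothelial cells (percent, log scale) at or above each score, the UMIs of Defb1, Tmem176a and Tmem176b per 10000 UMIs of the cell, in each library. Dots mark the top 10%, at 1.564 (Lpar6 knockout), 2.709 (Cab39l knockout) and 2.152 (wild type), and the curves pass through them without a step.

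The 3 genes that chose the cells are given as a description, in CPM over the summed cells of a class. Defb1 stood at 138 CPM in high cells of the Lpar6 knockout library (1589 UMIs), 261 in the Cab39l knockout library (3839 UMIs) and 180 in wild type (1281 UMIs). The rest held 24.3, 61.7 and 41.5 CPM of Defb1 in the same order. The Cab39l knockout library was highest in both classes and the Lpar6 knockout library lowest. Tmem176a stood at 58.1, 68.1 and 65.5 CPM in high cells and at 6.09, 11.97 and 8.10 CPM in the rest. Tmem176b stood at 44.5, 54.8 and 58.3 CPM in high cells and at 4.26, 10.0 and 6.80 CPM in the rest. For all 3 genes, which chose the cells, the highest and lowest libraries differed by a smaller factor in high cells than in the rest.

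The label markers that the selection did not use were a weaker part of these cells. Csrp2 rose in high cells, with 57.0, 71.6 and 60.8 CPM in high cells against 43.6, 57.5 and 50.6 CPM in the rest (Lpar6 knockout, Cab39l knockout, wild type). High cells were above the rest in each of the 3 libraries, and the log2 fold change was 0.33 ± 0.04 (SE, edgeR quasi-likelihood test, adjusted p = 0.000149). Enho had 421, 383 and 321 CPM in high cells against 426, 357 and 283 CPM in the rest. Its high cells were below the rest in the Lpar6 knockout library and above it in the other two, and it was not called (log2 0.10, adjusted p = 0.401). In cells chosen by Defb1 alone Enho was called, by a log2 of 0.12 (adjusted p = 0.0244), and in cells chosen by the Tmem176 genes alone it was not (0.08, adjusted p = 0.685). Of the label's markers outside the score, Csrp2 passed the test in high cells and Enho did not.

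**Figure D2:**
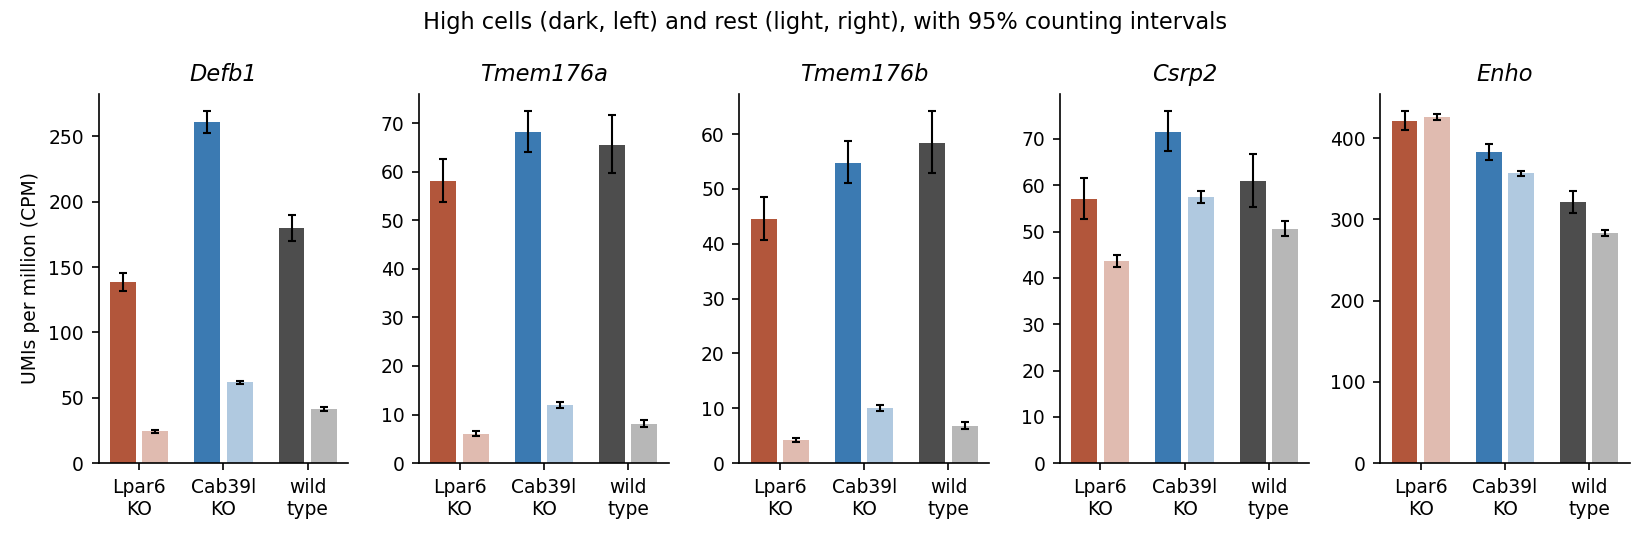
Level (CPM over the summed cells) of the 3 selected genes and of Csrp2 and Enho in each library, high cells (dark, left bar) and rest (light, right bar), with exact 95% Poisson intervals that cover counting error only. Csrp2 was higher in high cells of each library, and Enho at 421 against 426 CPM in the Lpar6 knockout library was not.

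Free RNA in droplets can give UMIs of genes that a cell does not express, so B cell barcodes of the same libraries were used as a background. At 1500 UMIs per cell, Defb1 was found in 4.82, 10.7 and 6.69% of eligible urothelial cells (Lpar6 knockout, Cab39l knockout, wild type), against 0 of 26, 1.87% of 107 and 1.26% of 159 B barcodes. The 0 of 26 allows up to 13.2% (exact binomial interval). Tmem176a was found in 1.63, 2.09 and 1.59% of urothelial cells, against 3.85, 2.80 and 3.14% of B barcodes, and Tmem176b in 1.18, 2.01 and 1.70%, against 3.85, 6.54 and 1.26%. At this thinned depth the share of urothelial cells with a Tmem176 UMI was at or below that of B barcodes, except for Tmem176b in wild type. There the interval of the B barcodes (0.153 to 4.47%) included it. The Tmem176 shares of B barcodes rested on 1 to 7 barcodes each. Their intervals also included the urothelial share elsewhere, except for Tmem176b in the Cab39l knockout library (2.67 to 13.0%). The urothelial shares cover all eligible cells, not the rest alone, and the depths before thinning differed. Whether the low level in the rest is expression was not tested, and it is not read as such. Median depths before thinning were 27339.5, 30904 and 23652 UMIs in urothelial cells, against 2530.5, 3342 and 2801 in B barcodes. Per barcode, unthinned, urothelial cells held 0.294, 0.525 and 0.356 Tmem176a UMIs, against 0.0385, 0.140 and 0.119 in B barcodes.

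Tmem176a and Tmem176b went together from cell to cell, while Defb1 went with them only weakly. With every cell thinned to 10000 UMIs, Tmem176b was found in 29.5, 37.1 and 40.2% of cells with a Tmem176a UMI (116 of 393, 245 of 661 and 111 of 276 in Lpar6 knockout, Cab39l knockout and wild type). It was found in 4.35, 7.65 and 6.01% of cells without one. The exact binomial intervals of these shares did not overlap in any library. A Tmem176a or Tmem176b UMI was found in 13.7, 21.2 and 17.1% of cells with a Defb1 UMI, against 12.0, 18.0 and 13.9% of cells without. The difference had the same direction in each library and was small, and its intervals overlapped in the Lpar6 knockout and wild-type libraries. These shares describe cells of 1 library each, and the intervals cover counting error only.

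**Figure D3:**
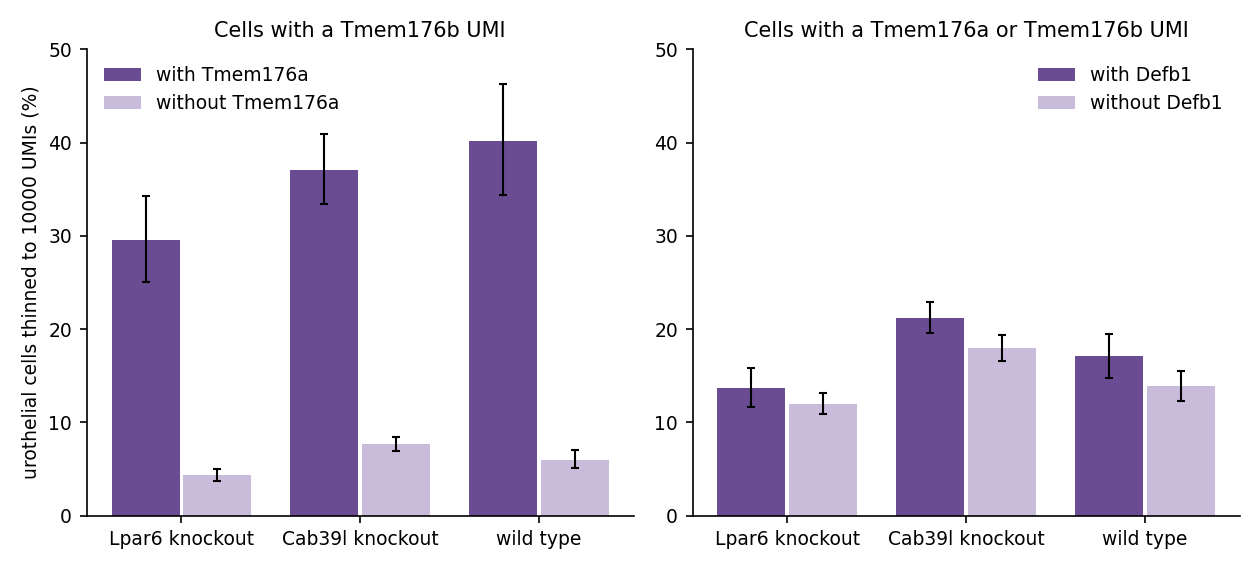
Share of eligible cells, thinned to 10000 UMIs, with a Tmem176b UMI (left) among cells with and without Tmem176a, and with a Tmem176a or Tmem176b UMI (right) among cells with and without Defb1, with exact 95% binomial intervals. The left pairs differ widely, at 29.5 against 4.35% in the Lpar6 knockout library, and the right pairs little, at 13.7 against 12.0%.

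The high cells held the UMIs of the 3 genes in different combinations, which the selection used and which are a description. Defb1 with a Tmem176 gene was found in 52.7, 64.8 and 56.4% of high cells (Lpar6 knockout, Cab39l knockout, wild type), Defb1 without a Tmem176 gene in 32.5, 30.9 and 31.8%, and a Tmem176 gene without Defb1 in 14.8, 4.26 and 11.8%. At so few UMIs a gene at 0 in a cell is not shown to be absent from it. Ranking by Defb1 alone gave a top 10% that held 59.7, 65.2 and 56.4% of the high cells, and ranking by the Tmem176 genes alone one that held 53.5, 48.2 and 54.3%. The top 10% by Defb1 and the top 10% by the Tmem176 genes shared 13.5, 14.7 and 11.1% of their cells, where each holds 10% of all eligible cells. Selection on few UMIs also draws on counting error. When each UMI was put at random into 1 of 2 equal parts, 38.3, 40.0 and 34.9% of the cells chosen on the first part were in the top 10% on the second. In the part not used, Defb1 was 3.20, 2.81 and 2.57 times as high in the chosen cells as in the rest, Tmem176a 4.68, 3.85 and 4.27 times and Tmem176b 4.35, 3.85 and 4.90 times.

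Each side of the score was then read in cells chosen by the other side. In cells chosen by the Tmem176 genes, Defb1 stood at 48.0, 107 and 64.0 CPM, against 33.1, 77.5 and 53.3 CPM in the rest (Lpar6 knockout, Cab39l knockout, wild type). It rose in each library, by a log2 of 0.45 ± 0.05 (SE, edgeR, adjusted p = 0.00119), and 142 of 12971 genes (1.09%) were called higher in that comparison. In cells chosen by Defb1, Tmem176a stood at 16.7, 23.04 and 16.1 CPM, against 10.2, 16.6 and 13.2 CPM in the rest (log2 0.51 ± 0.07, adjusted p = 0.000148). Tmem176b stood there at 12.6, 20.1 and 10.9 CPM, against 7.41, 13.6 and 11.7 CPM, higher in both knockout libraries and lower in wild type (log2 0.48 ± 0.10, adjusted p = 0.00573). In that comparison 78 of 12915 genes (0.604%) were called higher. With every cell thinned to 10000 UMIs none of the 3 passed, with adjusted p = 0.0763 for Defb1, 0.684 for Tmem176a and 0.453 for Tmem176b.

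Across all genes, 168 of 12932 tested (1.3%) were higher and 118 (0.912%) lower in high cells than in the rest at an adjusted p under 0.05. The UMIs of each library's high cells and rest were summed, so the test compares 3 libraries and measures the spread of the difference between them, which comes from pools of mice and not from single animals. DESeq2 called 77 higher and 42 lower, cells thinned to 10000 UMIs gave 30 and 20, and leaving out the wild-type library gave 256 and 227. For part of the higher calls a large share of the UMIs in high cells lay in single cells. For 71 of the 168, at least 20% of the UMIs in the high cells of some library came from 1 cell. Lyz2, the lysozyme of macrophages, had 322 UMIs in the 467 high cells of the Lpar6 knockout library, 98.5% of them in 1 cell. Svs2, a seminal vesicle protein, had 3139 UMIs in the Cab39l knockout high cells, 82.4% of them in 1 cell, and Cd52 had 64.5% and Apoe 91.4% of their UMIs there in 1 cell. Of the list of macrophage and dendritic genes, 10 of 15 were higher and 1 lower, and its summed level was 421, 449 and 423 CPM in high cells against 378, 357 and 336 CPM in the rest. Defining markers of other cell types (Csf1r, C1qa, C1qb, C1qc, Cd79a, Cd3e, Ptprc, Col1a1 or Col3a1) had a UMI in 0.857, 3.48 and 6.92% of high cells and 1.36, 2.94 and 3.85% of the rest. At least 10 UMIs of prostate, seminal vesicle and epididymis genes were found in 0, 9 and 1 high cells and 0, 37 and 5 other cells.

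Without the cells holding these markers, 106 genes were higher and 104 lower, and 191 of the 286 calls were made again in the same direction. Of the 71 higher calls with that share in 1 cell, 4 were made again, and of the other 97, 88 were. Lyz2, Apoe, Cd52 and Svs2 were not called there, with log2 fold changes of 0.17, -0.07, -0.32 and 0.10. Of the macrophage and dendritic genes, 0 were higher. Part of this follows from the choice of cells left out. C1qa, C1qb, C1qc and Ptprc were among the markers used, so they had 0 UMIs there and could not be called. Svs2, Svs5, Sbp and Spink1 were on the lists whose UMIs were summed for that choice. Svs2 (log2 0.29), Cd52 (0.28) and Sbp (-0.36) were also not called without the Cab39l knockout library. Igkc, an antibody light chain, and Sbp, a secreted protein of the prostate, were among the lowest genes. There, 94.9% of the Igkc UMIs of the wild-type rest and 33.1% of the Sbp UMIs of the Cab39l knockout rest lay in 1 cell, and both were not called without these cells. The genes described below were called both with and without these cells unless stated. Apart from the seminal vesicle genes Svs2 and Svs5, the genes called higher with the smallest adjusted p were Trf, Fbp1 and Cyp2f2.

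**Figure D4:**
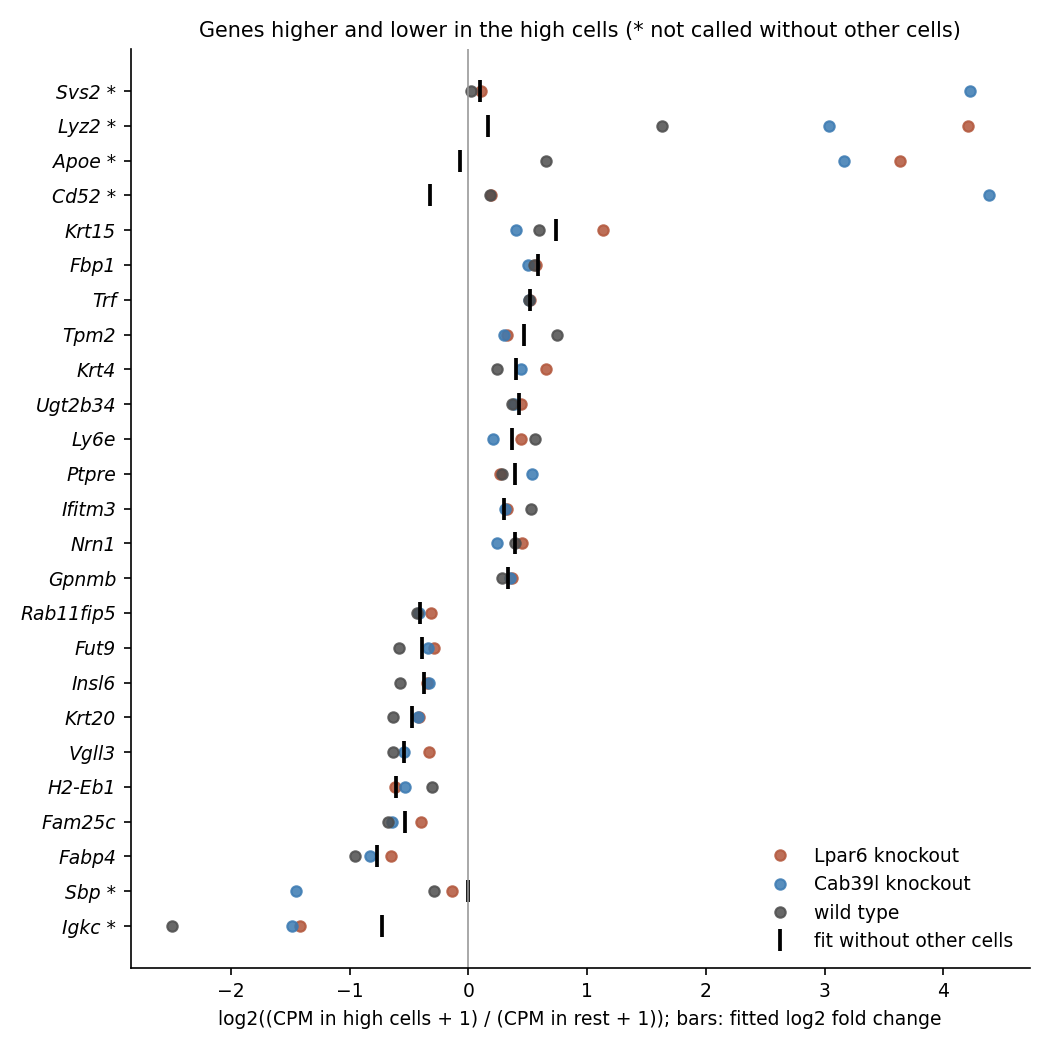
High cells against the rest for the 15 highest and 10 lowest genes named by rule: points give each library's log2 ratio of CPM + 1, and bars the fitted log2 fold change without the cells that held markers of other cell types. Genes with a star were not called without those cells. Krt15, Fbp1 and Trf lie to the right, and Fabp4 and Krt20 to the left, in each of the 3 libraries.

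The basal keratins Krt15 and Krt5 were higher and the umbrella cell keratin Krt20 lower in high cells. Krt14 and Krt17, also on the basal list, had 0 UMIs in the high cells of each library. Krt15, a keratin of basal cells, had 412, 1435 and 1555 CPM in high cells against 187, 1089 and 1026 CPM in the rest (Lpar6 knockout, Cab39l knockout, wild type). High cells were above the rest in each library, though the high cells of the Lpar6 knockout library lay below the rest of the other two, and the log2 fold change was 0.72 ± 0.09 (edgeR, adjusted p = 0.000215). DESeq2 gave Krt15 a similar log2 of 0.72 but did not call it (adjusted p = 0.0857). Krt5, also a keratin of basal cells, had 234, 372 and 363 CPM against 181, 316 and 290 CPM (log2 0.32, adjusted p = 0.000244). Of 15 basal genes tested, 4 were higher and 0 lower, namely Krt5, Krt15, the laminin chain Lamb3 (log2 0.22) and Igfbp2 (0.20). Over the 15 the median log2 was 0.172, against 0.002 over all genes tested. DESeq2 called 2 of the 15. Lamb3 was not called without Lpar6 knockout (log2 0.20) or without Cab39l knockout (0.18). Trp63, the transcription factor that maintains basal cells, was at 94.2, 97.7 and 152 CPM in high cells against 94.6, 96.8 and 156 CPM in the rest, and was not called (log2 0.00).

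Krt20, the keratin of umbrella cells, fell to 32.7, 24.3 and 35.5 CPM in high cells, against 43.8, 32.9 and 55.5 CPM in the rest (log2 -0.48 ± 0.04, adjusted p = 8.45e-06). It was the single umbrella gene called of 12 tested. Of 14 intermediate cell genes, Krt4 (log2 0.46) and Gsdmc2 (0.72) were higher and Psca (-0.38) was lower. Psca, a surface antigen of the upper urothelium, had 1344, 993 and 694 CPM in high cells against 1585, 1337 and 981 CPM in the rest. Among 20 luminal transcription factors 0 were called by edgeR or DESeq2, and 3 had an unadjusted p under 0.05. Gata3 had 357, 334 and 476 CPM in high cells against 375, 367 and 542 CPM in the rest (adjusted p = 0.132, called at a log2 of -0.11 without the wild-type library), and Grhl3 33.9, 31.7 and 32.9 CPM against 34.0, 34.4 and 37.0 CPM (adjusted p = 0.473).

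Several enzymes that handle foreign and reactive compounds were higher. Of 38 glutathione and xenobiotic enzymes tested, 8 were higher and 0 lower, with a median log2 of 0.096 against 0.002 over all genes tested. DESeq2 called only 3 of the 38. Cyp2f2, a cytochrome P450, had 11.6, 21.2 and 22.7 CPM in high cells against 3.63, 10.2 and 11.6 CPM in the rest. It was about as high in high cells of the Cab39l knockout and wild-type libraries and lower in the Lpar6 knockout library, and rose by a log2 of 1.20 ± 0.10 (adjusted p = 6.22e-06). Aldh3a1, an aldehyde dehydrogenase, had 98.6, 148 and 159 CPM against 75.8, 126 and 130 CPM (log2 0.31 ± 0.04, adjusted p = 0.000614). The other 6 were Gstm2, Gsto1, Mgst1, Gpx2, Nqo1 and Aldh2, with log2 fold changes of 0.20, 0.15, 0.16, 0.19, 0.20 and 0.48. Aldh2 (log2 0.30, adjusted p = 0.255) and Gsto1 (0.16, adjusted p = 0.0528) were not called without the cells holding other markers, where 7 of the list were higher and 0 lower. Cyp2f2, Aldh3a1 and Nqo1 stayed called when any 1 library was left out. The adjusted p was 0.302 for Gsto1, 0.396 for Mgst1 and 0.0720 for Aldh2 without Lpar6 knockout, 0.198 for Gstm2, 0.362 for Gsto1 and 0.475 for Mgst1 without Cab39l knockout, and 0.0842 for Gpx2 and 0.0937 for Aldh2 without wild type. Ugt2b34, a glucuronosyltransferase named among the highest genes, had 174, 163 and 214 CPM against 128, 125 and 165 CPM (log2 0.41, adjusted p = 1.17e-05). Aldh1a1, which makes retinoic acid, rose by a log2 of 0.43 (adjusted p = 0.00452).

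Trf and Fbp1 rose by similar amounts in the libraries, and Fabp4 fell in each library. Trf, which encodes the iron carrier transferrin, had 83.8, 96.5 and 139 CPM in high cells against 58.2, 67.5 and 97.4 CPM in the rest. High cells exceeded the rest by nearly the same log2 in each library, and the fit gave 0.53 ± 0.04 (adjusted p = 1.43e-06). Fbp1, a gluconeogenic phosphatase, had 31.4, 30.6 and 28.0 CPM against 20.9, 21.2 and 18.8 CPM (log2 0.57 ± 0.05, adjusted p = 4.93e-06). Fabp4, a fatty acid carrier, fell to 92.2, 52.1 and 46.3 CPM in high cells, against 145, 93.5 and 90.3 CPM in the rest (log2 -0.80 ± 0.05, adjusted p = 1.97e-07). It was the single gene called of 23 PPAR target and fatty acid genes. Fam25c (log2 -0.56), the MHC class II gene H2-Eb1 (-0.53), Vgll3 (-0.51), Insl6 (-0.40), the fucosyltransferase Fut9 (-0.40) and Rab11fip5 (-0.39) also fell.

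The list of other defence genes held calls in both directions. Of 19 genes of epithelial defence and secreted peptides tested, 2 were higher (Reg3g and Lyz2) and 3 lower (Spink1, Sbp and Clu), with a median log2 of -0.022. Spink1, a protease inhibitor, was not called without the Cab39l knockout library (log2 0.14). Without the cells holding other markers Reg3g and Clu were called again, and Spink1 (log2 0.10, adjusted p = 0.751), Sbp and Lyz2 were not. UMIs of Spink1 and Sbp helped choose the cells left out, so the loss of these calls is no separate check. Reg3g, an antibacterial lectin, had 13.1, 5.98 and 15.8 CPM in high cells against 8.76, 4.59 and 6.22 CPM in the rest (log2 0.75, adjusted p = 0.00664), with 32.7% of its wild-type high-cell UMIs in 1 cell. Of 20 interferon response genes, 3 were higher and 0 lower. Ifitm3, a membrane protein that restricts viruses, had 106, 88.0 and 77.2 CPM against 84.6, 70.8 and 53.4 CPM (log2 0.39, adjusted p = 0.000416), and Ifitm2 rose by a log2 of 0.23. The third, Ifi27l2a, had 5, 21 and 40 UMIs in high cells and was left out by the filter on low counts without the cells holding other markers. Ly6e, also induced by interferon, rose by a log2 of 0.41 (adjusted p = 0.00101). Of 21 MHC class I genes, 18 toll-like receptor and NF-kappaB genes and 16 subunits of the vacuolar proton pump, 0 were called by edgeR or DESeq2, with 1, 3 and 1 at an unadjusted p under 0.05. Of 6 MHC class II genes, Cd74 and H2-Aa were higher and H2-Eb1 lower, and without the cells holding other markers H2-Eb1 alone was called.

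Over all genes tested 1.3% were higher and 0.912% lower, and the other lists are given beside that. Of 32 LIM-domain and actin genes, the group of Csrp2, 3 were higher (Crip1, Tpm2 and Tpm4) and 0 lower, and only Tpm2 (log2 0.49) was called again without the cells holding other markers. Of 27 late endosome and lysosome genes, the compartment of the Tmem176 proteins in dendritic cells, the cathepsin genes Ctsa, Ctsl and Ctss were higher, with log2 0.22 for Ctsa and 0.17 for Ctsl. Ctss was left out by the filter on low counts without the cells holding other markers, as was Ms4a6c, the single gene called of 2 other MS4A-like genes. Among cell cycle (20 tested), immediate early (19), cholesterol synthesis (21), glycolysis (18), Hedgehog, Wnt and BMP (16), EGF receptor (11) and mitochondrially encoded genes (13), 0 were called by edgeR or DESeq2. At an unadjusted p under 0.05 there were 3, 4, 4, 1, 0, 2 and 0 of them in that order. Nrarp, a Notch target, was the single Notch pathway gene called (log2 0.26, adjusted p = 0.0131). Single calls in other lists were Hspb8 (higher) and Hspa1b (lower) of 18 heat shock genes, Ccng1 (lower) of 14 p53 targets, and Slc1a5 (higher) of 20 transport genes. Among 22 junction genes, Cldn3 was called higher, but not without the cells holding other markers (log2 1.13, adjusted p = 0.135). DESeq2 called 0 genes in the heat shock, p53, transport and junction lists. It called 2 of the LIM-domain and actin genes and 1 of the late endosome and lysosome genes. Several of these calls were lost when 1 library was left out: Ctsa (log2 0.13), Ctsl (0.12), Tpm4 (0.21), Ccng1 (-0.15) and Slc1a5 (0.17) without Lpar6 knockout, Crip1 (0.16), Nrarp (0.17), Hspb8 (0.59), Cldn3 (0.85), Ctsl (0.18), Ccng1 (-0.17) and Slc1a5 (0.18) without Cab39l knockout, and Tpm4 (0.16), Hspa1b (-0.23) and Ms4a6c (1.68) without wild type. Nrn1, Gpnmb and Ptpre were further genes of the highest group, with log2 fold changes of 0.37, 0.36 and 0.41.

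The Defb1 side and the Tmem176 side of the score differed in several of these genes when each chose the cells alone. Of 192 genes called in cells chosen by Defb1 and 208 in cells chosen by the Tmem176 genes, 54 were in both (28.1 and 26.0% of the lists), 44 with the same and 10 with the opposite direction. Krt15 rose on both sides, by a log2 of 0.61 in cells chosen by Tmem176 and 0.47 in cells chosen by Defb1, as did Krt5, Cyp2f2, Trf and Fbp1. Krt20 fell on both, by a log2 of 0.46 and 0.25. Ifitm3 stood at a log2 of 0.58 (adjusted p = 0.00346) in cells chosen by Tmem176 and 0.03 (0.881) in cells chosen by Defb1. Ly6e stood at 0.61 (adjusted p = 0.000846) and 0.07 (0.563), Tpm2 at 0.78 (0.00159) and -0.01 (0.993), and Nqo1 at 0.37 (0.0141) and 0.02 (0.947). In the other direction, Krt4 stood at -0.18 (0.0630) in cells chosen by Tmem176 and 0.66 (3.46e-10) in cells chosen by Defb1, and Gpnmb at 0.01 (0.954) and 0.40 (8.30e-08). These differences between both choices were not themselves tested.

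The share of cells with Xist moved with the high cells. Xist is the RNA that coats the inactive X chromosome, so in these pools it marks cells of female mice, and Ddx3y, Eif2s3y, Kdm5d and Uty lie on the Y chromosome. Cells with at least 5 Xist UMIs and 0 Y-linked UMIs (Xist cells) were 68.5, 61.5 and 55.7% of high cells against 54.6, 30.9 and 43.2% of the rest (Lpar6 knockout, Cab39l knockout, wild type). Cells with at least 1 Y-linked UMI and at most 1 Xist UMI (Y cells) were 23.8, 27.3 and 31.1% of high cells against 35.8, 57.4 and 45.4% of the rest. High cells were 12.2, 18.1 and 12.5% of Xist cells and 6.88, 5.01 and 7.09% of Y cells, and the exact binomial intervals did not overlap in any library. These intervals cover counting error only. Spread between mice is not in them, since single animals are not marked and the numbers of female and male mice are not given. The 4 Y-linked genes were accordingly lower in high cells, with Eif2s3y at a log2 of -0.68 and Ddx3y at -0.63, and Xist was higher (0.53, adjusted p = 0.00237).

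Xist cells were also set against Y cells over all eligible cells, a comparison added after seeing the data. Of 13007 genes tested, 49 (0.377%) were higher and 59 (0.454%) lower. These counts were 26 and 41 without the Cab39l knockout library, 129 and 201 without the Lpar6 knockout library, and 239 and 322 without wild type. Tmem176a had 12.8, 23.7 and 18.6 CPM in Xist cells against 7.57, 13.0 and 7.71 CPM in Y cells, higher in each library (log2 0.90 ± 0.10, adjusted p = 0.0256). Tmem176b had 8.96, 19.6 and 16.8 CPM against 6.24, 10.9 and 6.03 CPM (log2 0.87 ± 0.16, adjusted p = 0.0799). Defb1 had 39.4, 114 and 57.5 CPM against 27.8, 60.7 and 51.2 CPM (log2 0.49 ± 0.12, adjusted p = 0.142). Both were higher in Xist cells of each library but did not pass the threshold with all 3. Without the Lpar6 knockout library they passed (log2 1.06 for Tmem176b and 0.50 for Defb1), as they did without wild type (0.65 and 0.66). Without the Cab39l knockout library Tmem176b (log2 0.96) and Defb1 (0.31) did not pass. Trf (0.80, adjusted p = 0.0277) and Fbp1 (0.43, adjusted p = 0.0495) were higher in Xist cells too, whereas Aldh3a1 was lower (-0.44, adjusted p = 0.0256) and Krt15 (0.02, adjusted p = 0.977) was not called. When the top 10% was taken within Xist cells, within Y cells and within the remaining cells, 143 genes were higher and 112 lower, and 188 of the 286 calls were made again. Krt15 (log2 0.76), Krt5 (0.35), Cyp2f2 (1.06), Trf (0.41), Fbp1 (0.58), Aldh3a1 (0.43), Csrp2 (0.32), Krt20 (-0.51) and Fabp4 (-0.76) were called there. Xist (0.04, adjusted p = 0.803) and the 4 Y-linked genes were not. These genes defined the classes, so choosing within classes largely fixes their result, and it is not a finding.

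**Figure D5:**
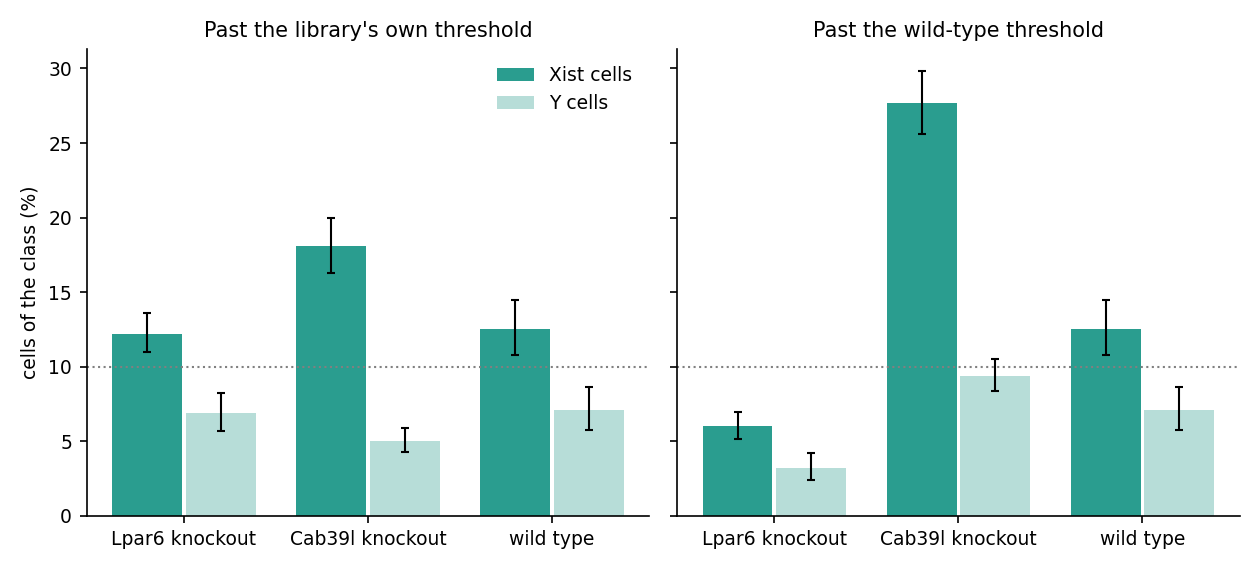
Share of Xist cells and of Y cells past the score threshold of their own library (left) and past the wild-type threshold (right), with exact 95% binomial intervals that cover counting error only. The dotted line marks 10%. Xist cells lie above Y cells in each library, at 18.1 against 5.01% in the Cab39l knockout library on the left.

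The selection fixes the share of high cells at 10% in each library, so libraries were compared at 1 threshold, that of wild type. Past it lay 4.90% of Lpar6 knockout cells (95% interval 4.30 to 5.56), 16.2% of Cab39l knockout cells (15.2 to 17.3) and 10.0% of wild-type cells (8.94 to 11.2). Thinned to 10000 UMIs, where the threshold falls on 2 UMIs, the shares were 12.6, 28.7 and 19.6%. In Xist cells alone they were 6.0, 27.7 and 12.5%, and in Y cells alone 3.22, 9.39 and 7.09%, in the order Lpar6 knockout, Cab39l knockout, wild type. The Cab39l knockout library was highest and the Lpar6 knockout library lowest in both classes. Over all eligible cells Defb1 stood at 34.6, 80.3 and 54.4 CPM, Tmem176a at 10.8, 17.2 and 13.5 CPM and Tmem176b at 7.89, 14.2 and 11.6 CPM. With 1 library per genotype there was no test, and genotype cannot be told apart from library.

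Few genes differed widely between libraries in how high cells compared with the rest. Of 8072 genes with at least 100 UMIs in the high cells of both libraries together, 10 had log2 ratios in the Lpar6 knockout library at least 1 away from those in wild type, and of 8353 genes 20 did in the Cab39l knockout library. In the Lpar6 knockout library, Wfdc17, Pf4 and Apoe were further up, with 100, 100 and 96.9% of their high-cell UMIs in 1 cell. Dcn, Cd74 and Vim were further down than in wild type, where 1 cell held 99.3, 31.9 and 38.2% of their high-cell UMIs. In the Cab39l knockout library, Akr1b7, Spink8 and Crisp1 were further up, with 61.0, 82.4 and 79.5% of their high-cell UMIs in 1 cell, and Dcn, Vim and Sbp were further down. Wfdc17, Pf4 and Apoe are genes of macrophages and Dcn and Vim of fibroblasts, and Crisp1 is a gene of the epididymis.

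The high cells overlapped little with cells chosen in the same way by other gene pairs. The top 10% by Krt5 and Trp63 held 13.1, 12.2 and 13.5% of the high cells (Lpar6 knockout, Cab39l knockout, wild type). The top 10% by Fabp4 and Clu held 9.21, 5.42 and 7.61%, that by Rgs5 and Ttr 5.78, 8.12 and 6.23%, and that by Krt20 and Upk2 9.85, 7.74 and 5.19%. Each such set holds 10% of all eligible cells. The basal pair was above that share in each library, though its exact binomial interval included 10% in the Cab39l knockout and wild-type libraries, and the other sets lay between 5.19 and 9.85%.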

How the data were processed

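The authors deposited a matrix of UMI counts (gene by barcode, not normalized) for each of 3 libraries. Cell Ranger 3.0.2 and mm10 are named, per the submitters' processing notes. The annotation release is not stated, and 99.9% of the 31053 gene identifiers were found in GENCODE vM21, which gave the positions. Values were whole numbers, with a different total in each library. High cells were chosen as described at the start.

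UMIs were summed over high cells and over the rest of each library (6 sums, 7133961 to 143000004 UMIs) and tested with edgeR 4.0.16 in R 4.3.3 (quasi-likelihood, TMM, filterByExpr, library as a block, Benjamini-Hochberg over all genes tested, calls at adjusted p under 0.05). The 3 selected genes and the 4 uroplakin genes stayed in totals and out of the tests. DESeq2 1.42.0 was an alternative. The SE is the log2 fold change over the square root of the F statistic. On simulated sums of high cells and rest (12784 genes), 80.6% of genes changed 1.5-fold, 100% of those changed 2-fold and 100% of those changed 4-fold were called. The simulation gave every gene the same small spread and changed only genes above a set mean count. It held no UMIs gathered in single cells, so these shares do not carry over to genes with few counts or with such cells. Levels have exact 95% Poisson and shares exact 95% binomial intervals, for counting error only. B barcodes had at least 3 summed UMIs of Cd79a, Cd79b and Ms4a1, at least 500 genes, at most 20% mt- and under 10000 UMIs. Doublets were scored with Scrublet in scanpy 1.11.5. Its own threshold marked 0, 0 and 22 cells (Lpar6 knockout, Cab39l knockout, wild type), so doublets stayed in, and removing the top 6% was an alternative. Thinning and the split of UMIs into 2 parts were seeded random draws.

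Named genes were Csrp2 and Enho, the 15 highest and 10 lowest log2 fold changes among calls with the same direction in each library and a mean of at least 20 CPM in the higher class (without mt-, ribosomal, haemoglobin, sex-linked and predicted genes), the 2 to 4 members of each list with the largest change at 10 CPM or more, and the 3 genes per direction with the largest difference against wild type. Genes named only as called members of a list were chosen after their values were seen. The cells, lists and tests were chosen with earlier results of these data known. The Xist and Y classes, the split of UMIs and the setting without seminal and epididymal cells were added after seeing the data. Some results are not reported here.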

Additional observations from a re-analysis of the deposited data

How the results depend on the processing

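Counts of genes higher and lower in high cells (168 and 118) moved with the setting. They were 77 and 42 with DESeq2, 30 and 20 with cells thinned to 10000 UMIs, 68 and 57 with the choice made within 10 bins of depth, and 42 and 34 in Xist cells only. Higher calls numbered 102 for the top 5%, 78 for cells chosen by Defb1 and 106 without cells holding markers of other cells, seminal vesicle or epididymis. Lower calls numbered 353 with no filter on low counts and 66 for cells chosen by Tmem176a and Tmem176b. Without the library as a block, edgeR called 0 higher and 0 lower, with 191 genes at an unadjusted p under 0.05. Leaving out 1 library gave 145 to 256 higher and 117 to 227 lower. For Xist against Y cells (49 and 59) it gave 26 to 239 higher and 41 to 322 lower, and DESeq2 gave 116 lower. There, Tmem176b passed with DESeq2 (log2 0.88), and without 1 library its log2 ranged from 0.65 to 1.06, that of Defb1 from 0.31 to 0.66 and that of Csrp2 from 0.083 to 0.21, with Tmem176b and Defb1 called without Lpar6 knockout or wild type and Csrp2 called without wild type. Thinned to 10000 UMIs, the log2 of Defb1 in cells chosen by Tmem176a and Tmem176b was 0.23, and in cells chosen by Defb1 that of Tmem176a was 0.24 and that of Tmem176b 0.36, none of them called. The share past the wild-type threshold was 12.6% (Lpar6 knockout) and 28.7% (Cab39l knockout) after thinning, and 14.9% (Cab39l knockout) at 10% mt- or less.

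Single genes turned round, by log2. In cells chosen by Defb1 these were Tpm2 (-0.0100), Ctsl (-0.052), Crip1 (-0.089), Reg3g (-0.26), Cd74 (-0.34), Cd52 (-0.36), Crisp1 (-1.08), Ctss (-0.69), H2-Aa (-0.29), Ifi27l2a (-0.45), Lyz2 (-1.53) and Apoe (-2.23). In cells chosen by Tmem176a and Tmem176b they were Krt4 (-0.18), Sbp (0.10), Spink1 (0.18), Igkc (2.87) and Ighm (4.92). In Xist cells only they were Crip1 (-0.018), Lyz2 (-0.50), Apoe (-0.83), Spink1 (1.22) and Sbp (2.08), and in thinned cells Sbp (0.044) and Spink1 (0.53). Igkc and Ighm turned at the top 20% (3.02 and 4.07), within 10 bins of depth (2.93 and 4.91) and with uroplakins of at least 0.4% (0.21 and 0.53), and Apoe at the top 5% (-1.67). Eif2s3y and Ddx3y turned within sex classes (0.034 and 0.092) and in Y cells only (0.022 and 0.073), as did H2-Aa in Y cells only (-0.11). Eif2s3y and Ddx3y were among the genes that defined these classes. Cd74 turned without doublets (-0.45). Apoe and Cd74 turned without cells holding markers of other cell types (-0.11 and -0.74). Without those and seminal or epididymal cells Crip1 (-0.018), Apoe (-0.070), Cd52 (-0.32), Cd74 (-0.74) and Spink1 (0.10) did. Without 1 library the log2 ranged from -0.39 to 4.24 for Svs5, from -2.15 to 5.16 for Crisp1 and from -1.18 to 0.14 for Spink1, turning without the Cab39l knockout library. The cause was not tested. Of all values of named genes under alternatives, 1223 kept direction and call, 379 lost the call and 5 gained it.

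No paired analysis was possible because each genotype is 1 library, so replicate numbers pair nothing between genotypes. High cells and the rest were compared within libraries, with the library as the block. Depth limits the score, since high cells held a median of 5 to 10 UMIs of its genes.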
